A study of Mus musculus with 6 samples.

Results

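Compact distal open sites are short stretches of accessible chromatin that lie away from the ends of protein-coding genes and were called in every library of this study. They were taken from 6 ATAC-seq peak lists of immature B cells (B220+CD93+) of the mouse spleen, by merging the lists into union regions. A region was kept where a peak of each of the 6 lists overlapped it, where its merged width was under 400 bp, and where it lay more than 1 kb from either end of every protein-coding gene. Members were thus chosen by peak presence, width and position, and peak calls and widths are measured values. The rule kept 683 of 70174 union regions, and of the 30954 regions called in all 6 lists. ATAC-seq uses the Tn5 transposase to cut open DNA, so a peak marks where many cuts fell.

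Every library came from Tcrd-GDL mice, in which a knock-in at Tcrd places the diphtheria toxin receptor and a reporter on γδ T cells. The 3 untreated libraries came from mice of this strain that got no toxin. The 3 DTx libraries came from mice given 2 intraperitoneal doses of diphtheria toxin, each 15 ng per gram of body weight and 48 h apart, and the cells were taken on day 8. The sources used here give neither age nor sex. They do not say that each library is a different mouse, so the spread behind each p-value is only that between these libraries and may be technical. Loss of γδ T cells and other effects of the toxin cannot be told apart in this design.

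Distal open sites are where transcription factors bind outside promoters, and they include enhancers, silencers and the insulator sites held by CTCF and cohesin. In B cells, factors such as PU.1, EBF1, E2A, PAX5 and octamer proteins bind such sites near genes of the B cell receptor pathway and of B cell identity. A narrow site leaves room for few bound factors between the flanking nucleosomes, while wide open regions often hold several sites side by side.

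The lists held between 36760 and 60811 peaks on the autosomes, X and Y. Untreated replicate 3 and DTx replicate 1 have a summit column and the other 4 lists have none, so each group holds both layouts. A gene-end peak, within 1 kb of an end of the gene, was present in all 6 libraries at the B cell genes Cd79a, Pax5, Ebf1 and Ms4a1 and at Cd93 and Ptprc, the genes of the sort marker CD93 and of CD45. None of the 6 libraries had one at the T cell genes Cd3e, Trac and Trdc, the myeloid gene Lyz2, the natural killer cell gene Ncr1 or the erythroid gene Gata1. Cd3g had one in 0 untreated and 1 DTx library, Csf1r in 3 and 1, and Itgam in 2 and 3, and whether other cells were in the sort was not tested.

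Sequence was at hand for 12 of the 683 regions, those that reach into a RefSeq promoter window (250 bases before to 50 after an annotated transcript start, GRCm38.p6, the build of mm10). This was 1.76% of the compact distal regions, against 7.64% of the 20177 wide distal regions (400 bp or more, same distance rule). Of the 12, 8 were at windows of long noncoding RNA genes. The other 4 were at starts inside the coding genes Ggta1, Bmf, Fcho1 and Nox1, so a region far from both ends of a gene can still sit on an annotated start. The stretches listed here are the parts of such windows inside a region, on the strand of the gene. They come from promoter windows, so they do not stand for the other compact distal regions. Capitals mark matches, on either strand, to the motifs ETS AGGAAG, RUNX TGTGGT, octamer ATGCAAAT, EBF1 CCCNNGGG and a CTCF core. Each stretch printed holds a match, while those at Gm39896, Bmf and Gm32968, not printed, hold none.
Ggta1 (chr2:35461400-35461530, minus strand): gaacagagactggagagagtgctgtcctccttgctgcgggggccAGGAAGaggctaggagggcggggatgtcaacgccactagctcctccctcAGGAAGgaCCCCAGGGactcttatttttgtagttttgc
Fcho1 (chr8:71725632-71725846, minus strand): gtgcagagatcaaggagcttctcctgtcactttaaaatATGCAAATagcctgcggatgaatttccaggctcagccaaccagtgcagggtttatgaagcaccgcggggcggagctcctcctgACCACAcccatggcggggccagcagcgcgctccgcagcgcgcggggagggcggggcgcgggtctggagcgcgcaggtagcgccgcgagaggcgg
Nox1 (chrX:134111805-134112043, minus strand): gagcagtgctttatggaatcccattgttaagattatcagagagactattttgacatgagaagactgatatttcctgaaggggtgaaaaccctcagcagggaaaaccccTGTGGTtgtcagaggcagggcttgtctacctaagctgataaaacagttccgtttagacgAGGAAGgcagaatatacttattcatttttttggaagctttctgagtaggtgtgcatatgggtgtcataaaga
Gm4319 (chr1:72123709-72123927, minus strand): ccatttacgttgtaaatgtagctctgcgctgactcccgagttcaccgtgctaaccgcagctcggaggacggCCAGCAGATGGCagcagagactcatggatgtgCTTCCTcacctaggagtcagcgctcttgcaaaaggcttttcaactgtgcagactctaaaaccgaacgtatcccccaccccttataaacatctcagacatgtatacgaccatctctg
Gm51710 (chr9:63731384-63731657, plus strand): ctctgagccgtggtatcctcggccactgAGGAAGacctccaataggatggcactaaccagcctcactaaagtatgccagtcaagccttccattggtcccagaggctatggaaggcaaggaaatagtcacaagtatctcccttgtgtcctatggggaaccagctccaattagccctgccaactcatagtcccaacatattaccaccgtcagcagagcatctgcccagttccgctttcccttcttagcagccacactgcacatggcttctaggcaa
4833407H14Rik (chr19:53460372-53460671, plus strand): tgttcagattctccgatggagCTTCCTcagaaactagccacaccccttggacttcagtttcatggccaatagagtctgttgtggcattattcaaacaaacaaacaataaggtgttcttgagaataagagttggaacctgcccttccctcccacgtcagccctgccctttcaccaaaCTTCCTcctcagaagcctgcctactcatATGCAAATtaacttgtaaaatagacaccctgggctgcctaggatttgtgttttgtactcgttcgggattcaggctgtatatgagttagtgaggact

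The ETS letters were in 7 of the 12 stretches, against 35.4% of all 32851 windows of 300 bases. RUNX letters were in 4 (16.8% of windows), octamer letters in 2 (1.74%), and EBF1 (13.7%) and CTCF (2.43%) letters in 1 each. E protein letters CAGCTG were in 1 (16.3%), and AP-1 letters TGANTCA (7.81%) and those of an IRF repeat (3.44%) in 0. The stretches are between 53 and 300 bases long, so these shares are not of equal length, and a match of letters is not a measured binding site.

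The Ggta1 site was the strongest of the 4 at internal starts. Ggta1 encodes the α-1,3-galactosyltransferase that builds the α-Gal sugar. Its region (chromosome 2, 35461193 to 35461530) lay 2851 bp from the nearest gene end and stood between percentiles 76.4 and 92.8. Percentile here means the rank of the −log10 q of a peak among all peaks of its own list, with 100 the strongest. Fcho1, which starts clathrin-coated pits, had its site (chromosome 8, 71725496 to 71725846) between percentiles 52.8 and 81.9. Bmf, a pro-apoptotic BH3-only gene, had one (chromosome 2, 118544260 to 118544590) between 20.7 and 78.6. The NADPH oxidase gene Nox1 had its site (chromosome X, 134111656 to 134112043) between 21.6 and 51.8. The region at Gm4319, the stretch with the CTCF letters, stood between 26.3 and 57.4, that at Gm51710, 26.2 kb from an end of the TGF-β signal transducer gene Smad3, between 57.9 and 86.1, and that at 4833407H14Rik between 37.7 and 77.8.

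Each of the 683 regions held exactly 1 peak in each of the 6 lists. Merged widths ran from 203 to 399 bp with a median of 356 bp. They lay just under the limit, with 219 distal regions of 375 to 399 bp and 237 of 400 to 424 bp, so the counts rose across the limit without a step. The 2 just inside were at Pgap1 and Abca12 (both 399 bp, percentiles 44.8 to 71.9 and 16.2 to 61.0), and the 2 just outside at St6galnac6 and Dmac1 (both 400 bp, 27.3 to 60.6 and 11.5 to 30.0). For distance, those just inside were at Rhoq (1010 bp) and Ndrg4 (1043 bp), and those just outside at Myo1g (997 bp) and Arf1 (966 bp).

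A stretch covered by peaks of all 6 libraries was present in each of the 683 regions. It was 201 bp long at the median and between 75 and 371 bp, or 59.1% of the merged width at the median. The lower edges of the 6 peaks of a region spread over 63 bp at the median and the upper edges over 59 bp. In the 2 lists with a summit column the summits lay 12 bp apart at the median and within 20 bp of each other in 403 regions (59.0%), against 16 bp and 54.7% for the wide distal regions. For the 55 compact gene-end regions (under 400 bp, within 1 kb of a protein-coding gene end) these were 6 bp and 74.5%. The 2 lists with a summit column come from different groups. In 671 of the 683 regions (98.2%) both summits fell in the stretch shared by all 6 libraries, against 96.0% of the wide distal and 98.2% of the compact gene-end regions. The rule capped the merged width, which limits how far edges and summits of a compact region can lie apart. The wide distal regions had no such cap, so these values are descriptions with no test.

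**Figure D1:**
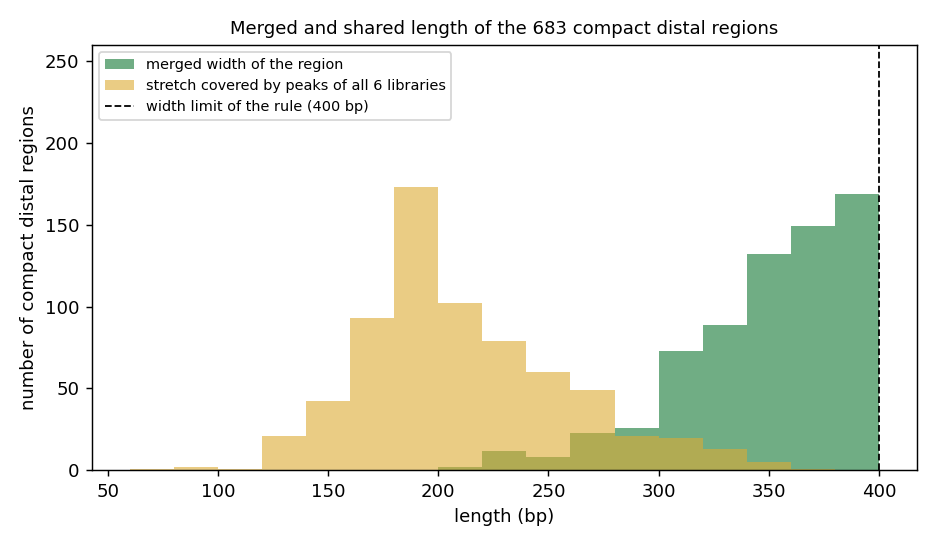
Histogram of length in bp (x axis) against the number of compact distal regions (y axis), for the merged region and for the stretch under a peak in all 6 libraries; the dashed line is the 400 bp limit. Merged widths crowd against the limit, while the shared stretch centres on 201 bp.

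By position, 342 regions (50.1%) lay inside a protein-coding gene and 341 outside, against 53.8% inside for the wide distal regions. The distance to the nearest gene end was 16.3 kb at the median, with 66 regions (9.66%) beyond 100 kb, against 18.8 kb and 11.8% for the wide distal regions. Regions inside and outside genes had like strength in every library, for example median percentiles of 36.6 and 39.6 in untreated replicate 1 and of 61.0 and 59.7 in DTx replicate 2. The gene table has no exons, so introns and exons were not told apart.

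Chromosomes differed in how many of their distal regions were compact. Chromosome 1 held 66 of the 683, chromosome 2 held 58 and Y held 0. Per 100 wide distal regions the count was highest on chromosomes 8 (4.61), 9 (4.43) and 1 (4.27), and among chromosomes with members it was lowest on 13 (1.84), 14 (2.19) and 7 (2.42). These are descriptions with no test.

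Compact distal regions lay closer to other open chromatin than wide distal regions did. The nearest other region called in all 6 lists was 4.09 kb away at the median, against 8.98 kb for the wide distal regions, and 381 compact regions (55.8%) had one within 5 kb, against 28.4%. The excess was at short range: 129 (18.9%) had a gap of 1 to 2 kb, against 6.81% of the wide distal regions. That neighbour was a wide distal region for 459, a wide gene-end region for 214, and another compact distal region for 9. In 510 (74.7%) the neighbour had the higher mean rank, against 55.4% for the wide distal regions. The 55 compact gene-end regions had a median gap of 3.02 kb, and 70.9% had a neighbour within 5 kb. In 81.8% of them the neighbour had the higher mean rank. Short gaps and a higher-ranked neighbour were thus not particular to the distal sites among compact regions. The 175 compact distal regions with a neighbour within 2 kb had median percentiles of 41.7, 52.4 and 53.5 untreated and 45.5, 63.5 and 70.7 DTx. The 210 with none within 10 kb had 33.3, 37.1 and 43.2 and 38.5, 52.6 and 54.1, lower in 6 of 6 libraries.

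Between compact distal regions themselves the gap was 739 kb at the median, a gap among 683 regions that cannot be set against gaps to any of 30954. None had another within 1 kb, 18 had one within 10 kb and 114 (16.7%) within 100 kb. The closest pairs lay 2394 bp apart near Hlx, a homeobox transcription factor gene (chromosome 1, 184735187 to 184735585 and 184737979 to 184738266), 2689 bp apart near S100a10, which encodes a partner of annexin A2 (chromosome 3, 93544136 to 93544521 and 93547210 to 93547584), and 3111 bp apart inside Cfap45, a gene of ciliary proteins (chromosome 1, 172525277 to 172525640 and 172528751 to 172529107). Closeness did not bring like strength at Hlx. One site stood at percentiles 18.3, 13.6 and 28.4 in untreated replicates 1 to 3 and 25.4, 49.6 and 47.6 in DTx replicates 1 to 3, and the other at 64.6, 66.3 and 60.03 and at 60.9, 69.6 and 79.3. The second was above the first in 6 of 6 libraries.

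**Figure D2:**
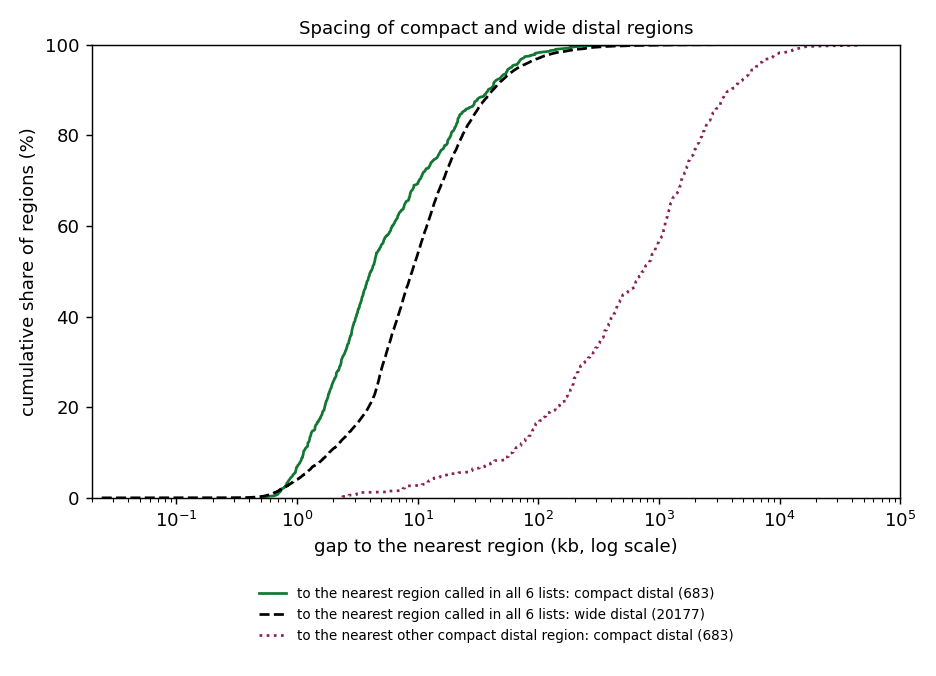
Cumulative share of regions (y axis, %) against the gap to the nearest region (x axis, kb, log scale), for compact and wide distal regions against any region called in all 6 lists, and for compact distal regions against each other. The compact curve reaches 55.8% at 5 kb where the wide curve reaches 28.4%, and the dotted curve, which runs over 683 regions alone, is not on a like footing.

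The 683 regions had 633 distinct nearest protein-coding genes, 586 of them with a single region. Only Cntn5, Gm9733 and Mtss1 were nearest to 3. Cntn5, a neural adhesion gene, had its 3 regions outside the gene on chromosome 9 (11183279 to 11183626, 11452718 to 11453094 and 11648921 to 11649301), 279, 548 and 744 kb away, at percentiles no higher than 43.1. Mtss1, which encodes a membrane-bending actin regulator, had 2 inside the gene (chromosome 15, 59039866 to 59040257 and 59051115 to 59051431), at percentiles 58.7 to 80.0 and 52.0 to 86.9, and 1 outside it (59145675 to 59145975), at 16.4 to 41.2. The fullest window of 100 kb (chromosome 3, 15110139 to 15210138) held the 3 regions nearest to Gm9733, among 10 regions called in all 6 lists. Counted from each member's start, 58 other such windows held 2 members, among them windows at Slc39a10, Ctla4 and Cxcr4, which are the first of these ties in chromosome order, and 624 held 1.

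Within a list, compact distal regions covered nearly the whole range of strength. The median percentile was 37.8, 46.6 and 49.7 in untreated replicates 1 to 3 and 41.7, 60.5 and 64.5 in DTx replicates 1 to 3. In every library it was below that of the wide distal regions, which was between 49.6 and 68.6. Width and strength go together in peak calling and the rule set the width, so no test is given. Of the 683, 161 (23.6%) stood above percentile 50 in all 6 lists, against 43.5% of the wide distal regions, and 150 (22.0%) stood below it in all 6, against 15.0%. The median fold enrichment was 4.10, 4.41 and 7.05 untreated and 6.99, 4.73 and 4.73 DTx, against 4.92, 5.51 and 11.8 and 10.7, 5.69 and 5.68 for the wide distal regions. In these bulk libraries, fewer cells with an open site and less opening per cell cannot be told apart. The lists differ in length, so the order of the libraries in this measure shows no change between groups.

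**Figure D3:**
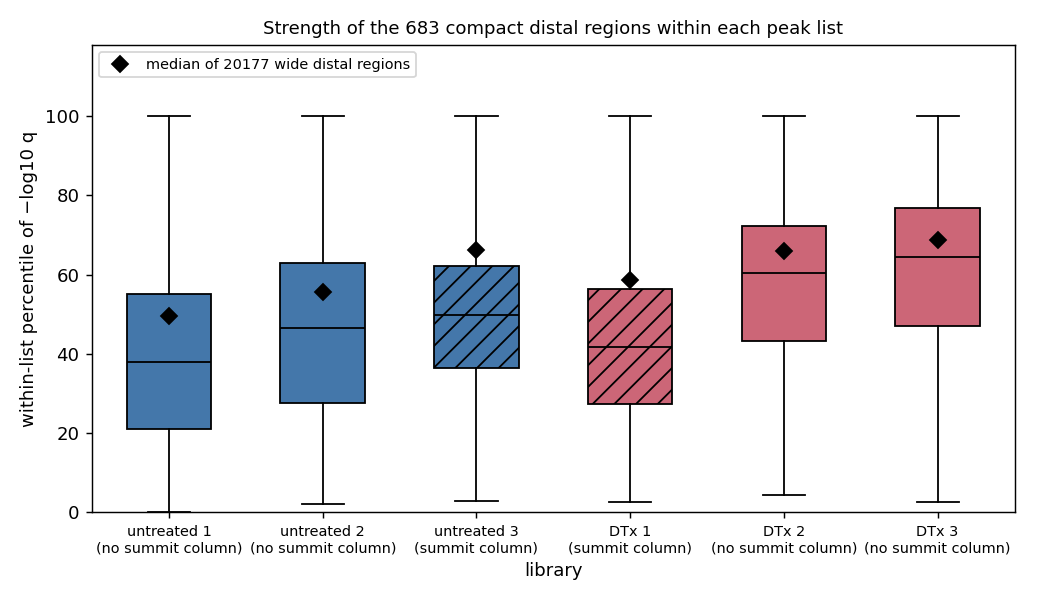
Within-list percentile of −log10 q (y axis) of the 683 compact distal regions in each library (x axis); boxes span the quartiles with the median as a line, whiskers reach the lowest and highest region, hatching marks lists with a summit column, and diamonds give the median of the wide distal regions. In every library the diamond lies above the box's median, from 37.8 against 49.6 in untreated replicate 1 to 64.5 against 68.6 in DTx replicate 3.

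Some compact sites were among the peaks of highest fold enrichment in the lists. A site inside Chl1, a neural adhesion gene of the L1 family (chromosome 6, 103649070 to 103649290, 83.7 kb from a gene end), had the highest fold enrichment of all peaks in each of the 6 lists. Its fold enrichment over background, the authors' value, was 27.5, 27.8 and 47.2 in untreated replicates 1 to 3 and 47.6, 31.5 and 29.3 in DTx replicates 1 to 3, where list medians were between 4.51 and 9.17. The lower edges of its 6 peaks spread over 4 bp and the upper edges over 1 bp. A site 137 kb from Rab10, a vesicle traffic GTPase gene (chromosome 12, 3109885 to 3110087), ranked 2 or 3 by fold in each list, with 26.1, 27.5 and 37.8 untreated and 39.5, 29.4 and 27.9 DTx, and its edges spread over 2 and 0 bp. By −log10 q the Rab10 site ranked between 7 (untreated replicate 1) and 3373 (untreated replicate 3). A site 29.3 kb from Rpusd4, a mitochondrial pseudouridine synthase gene (chromosome 9, 35305217 to 35305589), ranked between 4 and 11 by fold and between 4 and 333 by −log10 q, and its edges spread over 2 and 0 bp. The sources used here do not say how reads that map to more than 1 place were treated. No filter for regions prone to artefact signal was applied here, and whether these calls mark open chromatin was not tested.

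The next 5 in rank were less extreme. The site inside Zc3h7a, a zinc finger gene (chromosome 16, 11143919 to 11144308), stood at percentiles 98.9, 97.6 and 98.1 untreated and 93.0, 96.1 and 96.9 DTx. The site inside Cdk8, a kinase gene of the Mediator complex (chromosome 5, 146260990 to 146261357), stood at 99.7, 99.4 and 96.7 and at 92.1, 98.6 and 98.5. Sites 189 kb from Stt3b (chromosome 9, 115499540 to 115499910), inside the kinase gene Camk1d (chromosome 2, 5379045 to 5379383) and inside Gphn, which encodes the synaptic scaffold gephyrin (chromosome 12, 78350870 to 78351174), stood at or above 89.8, 89.3 and 86.9 in all 6 lists. The weakest sites by the same measure were inside Maml2, a Notch coactivator gene (chromosome 9, 13631846 to 13632237, 11.4 to 15.2), inside Slco3a1 (chromosome 7, 74340514 to 74340885, 6.74 to 15.9) and 185 kb from Gm9733 (chromosome 3, 15110139 to 15110513, 12.1 to 16.0). These stayed at or under percentile 16.0 and were still called in all 6 lists.

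Genes of B cells had compact sites nearby, and so did some genes of other cells. A list gene was counted where it was the nearest protein-coding gene, within 100 kb, of at least 1 compact distal region. Of all 21887 protein-coding genes 601 (2.75%) were. The 15 lists differ in gene length and in how much open chromatin surrounds their genes, so the share of compact ones among all distal regions called in all 6 lists near the genes is given too. Over all genes that share was 3.31%, from 639 compact and 18647 wide distal regions.

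Of 18 genes of B cell receptor signalling, 6 had such a site, among them Lyn, Pik3cd, Pik3r1, Prkcb and Vav1, and the compact share was 5.83%. The site inside the kinase gene Lyn (chromosome 4, 3682846 to 3683217) stood at 67.4, 70.6 and 65.3 and at 63.4, 81.5 and 79.5 (untreated and DTx replicates 1 to 3). The sites at the PI3-kinase genes Pik3cd (chromosome 4, 149706052 to 149706287) and Pik3r1 (chromosome 13, 101654799 to 101655159) stood between 55.9 and 73.8 and between 56.1 and 72.5. Vav1, an exchange factor gene, and Prkcb, a protein kinase C gene, had sites between 41.0 and 71.0 and between 28.6 and 65.3.

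Of 18 genes of B lineage identity, Ebf1, Foxo1 and Bach2 had 4 such regions, a compact share of 3.96%. Both Ebf1 sites, in the gene of a factor that commits cells to the B lineage, lay inside the gene on chromosome 11. The stronger (44869325 to 44869686) stood at 8.22, 39.7 and 57.4 untreated and 24.8, 51.5 and 70.9 DTx, the widest range among the 36 regions near listed genes. The site near Foxo1, a factor of early B cells (chromosome 3, 52257787 to 52258177), stood at 39.7, 43.7 and 59.9 and at 54.5, 79.6 and 71.9. The Bach2 site (chromosome 4, 32572147 to 32572536) stood between 34.9 and 52.6. Of 14 genes of immature and transitional B cells only Erg, an ETS factor gene, had one (chromosome 16, 95631747 to 95632116, 27.0 to 50.5), a compact share of 1.61%.

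Receptors that place B cells in the spleen also had compact sites. Of 15 follicular and marginal zone genes, S1pr1 and Cxcr4 had 2 regions each, a compact share of 6.15%. The stronger S1pr1 site, by the receptor gene for exit into the blood (chromosome 3, 115681267 to 115681609), stood at 73.4, 58.4 and 59.8 untreated and 62.3, 78.6 and 73.8 DTx. The stronger Cxcr4 site, by a chemokine receptor gene (chromosome 1, 128601369 to 128601730), stood at 71.0, 77.9 and 71.3 and at 53.4, 77.8 and 69.3. The survival gene Bcl2 (chromosome 1, 106567551 to 106567799) had a site at 26.8, 69.2 and 48.9 and at 53.9, 72.2 and 83.1, and Stat6, the IL-4 signal transducer (chromosome 10, 127655244 to 127655595), one between 18.3 and 53.4. They were the 2 genes of 18 in the list of survival and cytokine receptor genes, where the compact share was 3.13%.

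Irf4, a factor of plasma cells, was the 1 of 14 germinal centre and plasma cell genes with a site (inside the gene, chromosome 13, 30764252 to 30764646), a compact share of 2.5%. It stood at 65.8, 69.8 and 68.1 untreated and 71.1, 75.9 and 76.3 DTx. Of 16 signal-induced factors, Atf3 (chromosome 1, 191226659 to 191227029) and Myc (chromosome 15, 61983373 to 61983686) had sites between 59.1 and 75.3 and between 54.7 and 74.3, a compact share of 3.08%. Of 15 genes of chromatin architecture and quiescence, 6 had 7 regions, a compact share of 7.53%. They were Foxp1 with 2, and Zeb2, Btg1, Btg2, Klf4 and the cohesin gene Smc1a with 1 each. One Foxp1 site (chromosome 6, 99342369 to 99342701) and the Zeb2 site (chromosome 2, 45190855 to 45191233) stood between 38.6 and 71.0 and between 40.7 and 65.3.

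Among lists of other cells, T cell genes had 3 compact regions beside 19 wide distal ones, a share of 13.6%. All 3 lay on chromosome 1 at the costimulatory genes Cd28 and Ctla4. The stronger region near Ctla4 (60868313 to 60868688, 40.3 kb away) stood at 80.0, 78.6 and 71.5 untreated and 74.8, 86.3 and 90.02 DTx, and that near Cd28 (60702685 to 60703030, 43.4 kb away) between 22.7 and 36.6. Both lie outside the genes and were assigned by distance alone. Klrb1c (NK1.1), Itgam (CD11b), Ccr9, Irf8, which B cells also use, and Tfrc had 1 each. The Klrb1c site (inside the gene, chromosome 6, 128786368 to 128786647) stood at 30.7, 34.4 and 42.5 and at 62.1, 61.2 and 53.3. The Itgam site (chromosome 7, 128050761 to 128051124), the Irf8 site (chromosome 8, 120764551 to 120764865) and the Ccr9 site (chromosome 9, 123773302 to 123773582) reached at most 44.0, 43.4 and 43.3. The Tfrc site (chromosome 16, 32614040 to 32614423) stood between 33.5 and 71.3. The compact share was 4.35% for the natural killer and innate lymphoid list, 4.55% for the myeloid and for the dendritic cell list, 5.56% for the neuronal list and 25% for the erythroid list, which had 1 compact beside 3 wide distal regions. Of 12 housekeeping genes 0 had one, beside 9 wide distal regions.

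**Figure D4:**
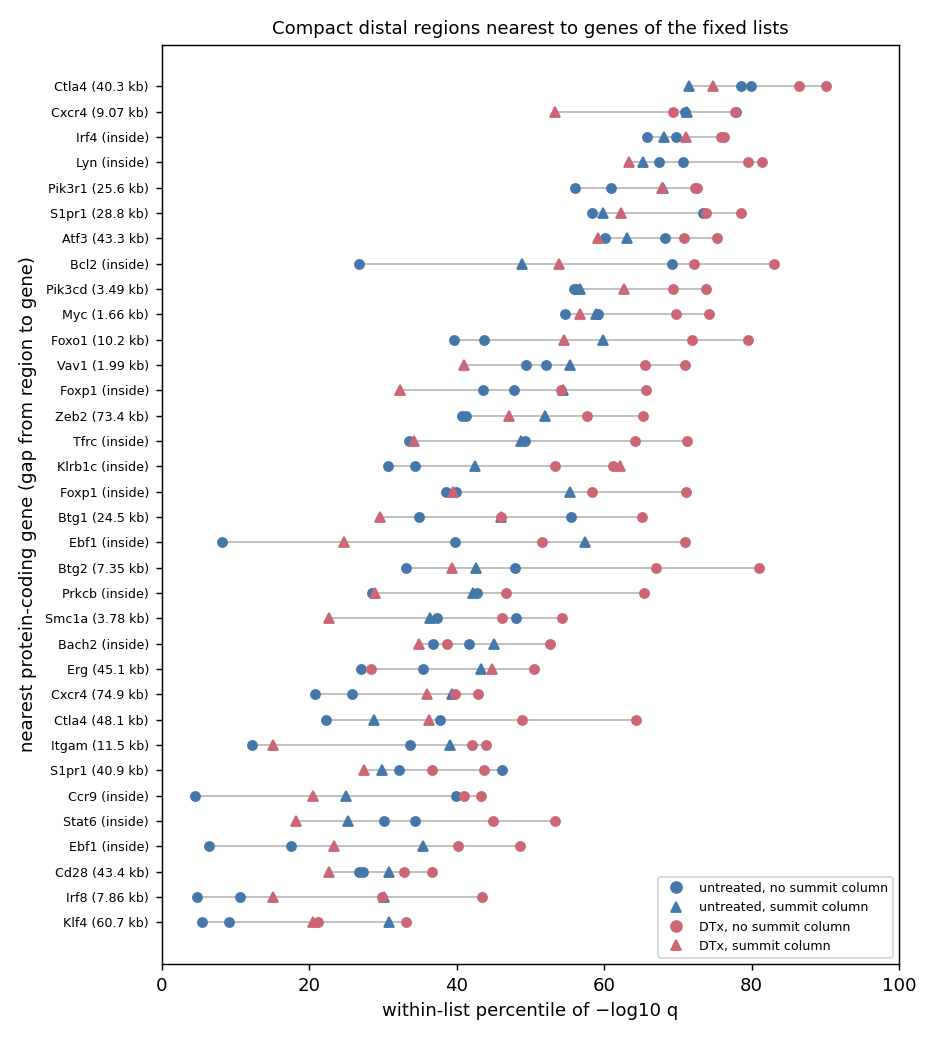
Within-list percentile of −log10 q (x axis) in each of the 6 libraries for 34 of the 36 compact distal regions nearest to a listed gene (y axis, with the gap to the gene in kb), blue for untreated and red for DTx, triangles for lists with a summit column; grey lines span the lowest to the highest library. The upper of the sites at Ctla4 stands at or above 71.5 in all 6 lists, and the site at Klf4 does not pass 33.2 in any.

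Noncoding genes were not part of the rule. An end of a noncoding gene lay within 1 kb of 56 regions (8.20%), against 10.1% of the wide distal regions, and 34 of these were near long noncoding RNA genes. An end of a tRNA gene lay within 1 kb of 2 regions (0.293%), against 86 (0.426%) of the wide distal regions, and both compact regions covered the gene. The tRNA gene n-TFgaa6 (chromosome 19, 12002236 to 12002308) lay inside a region at 50.2, 48.7 and 50.8 untreated and 53.6, 67.8 and 72.8 DTx. The tRNA gene n-TSaga1 (chromosome 13, 21937094 to 21937175) lay inside one at 10.8, 20.3 and 19.8 and at 25.3, 33.3 and 46.9. The snoRNA gene Gm25232 (chromosome 13, 48572253 to 48572384) had its end in a region between 54.99 and 79.8.

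To compare the groups, each region was ranked again among the 30954 regions called in all 6 lists, the same set in every library, here called the shared-set percentile. The median over the 683 regions was 28.2, 30.7 and 18.4 in untreated replicates 1 to 3 and 23.0, 33.5 and 35.7 in DTx replicates 1 to 3. The means were 25.7 ± 6.50 and 30.7 ± 6.79 (SD, n = 3 each), a difference of 4.99 points, smaller than the spread between libraries (exact two-sided permutation p = 0.5, smallest possible 0.1). DTx was 5.18 points higher in the lists without a summit column and 4.62 points higher in the pair with one. Without untreated replicate 3 the difference was 1.31 points. The 2 DTx lists without a summit column also held more peaks (56266 and 60811) than the 2 untreated ones (36760 and 42504), and the part of list length in this difference was not tested. In the pair with a summit column the order was the opposite, with 44661 DTx and 56503 untreated peaks.

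**Figure D5:**
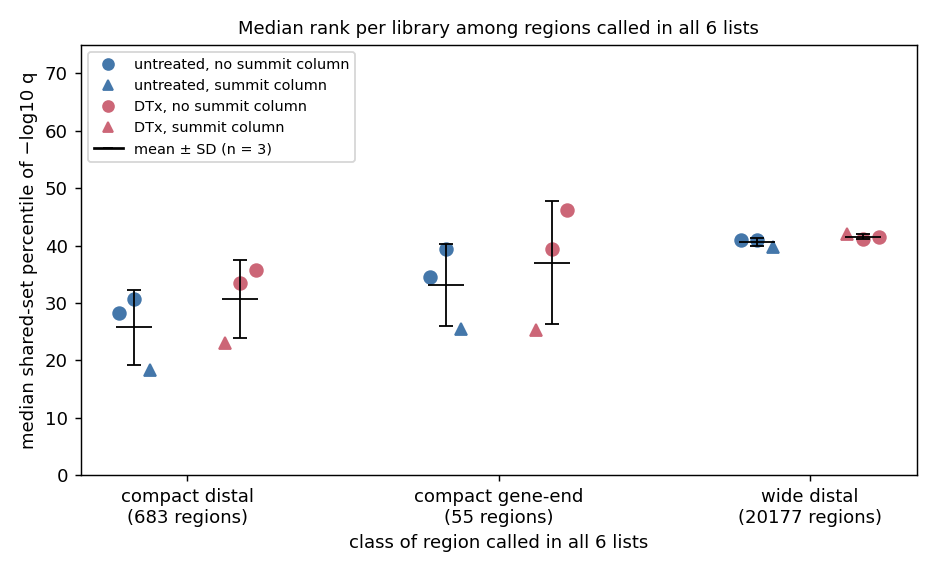
Median shared-set percentile of −log10 q (y axis) per library for 3 classes of region called in all 6 lists (x axis); points are libraries, triangles have a summit column, and bars give the mean ± SD (n = 3). Compact classes stand lower in the lists with a summit column, and the untreated and DTx libraries overlap in the compact distal class, at 18.4 to 30.7 and 23.0 to 35.7.

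By region, limma with list layout as a covariate called 0 of the 683 at an adjusted p under 0.05, where 0% of the 30954 regions were called. At an unadjusted p under 0.05 it had 52 (7.61%), where 4.15% of all regions had it. Of these, 42 (6.15%) were higher in DTx, against 2.18% of all regions, and 10 (1.46%) were lower, against 1.98%. The median difference was 3.54 points with a median standard error of 6.69 points, against -0.13 points over all 30954 regions, and 470 of the 683 (68.8%) were above 0, against 48.6%. The same held for 41 of the 55 compact gene-end regions (74.5%, median 2.87 points), 56% of the wide distal regions (median 0.74 points) and 32.1% of the wide gene-end regions (median -1.41 points). In 44 regions (6.44%) every DTx library ranked above every untreated one, where 3.97% of all regions and 5.16% of the wide distal regions did so. The reverse held in 14 (2.05%), where 4.77% of all regions and 3.59% of the wide distal ones did so. The lean of compact regions towards DTx is thus a description over regions that share libraries, and no single region passed the test. Among the 36 regions near listed genes every DTx library ranked above every untreated one in 4, and the reverse held in 0. Over all regions these shares were 3.97% and 4.77%. The 4 were at Foxo1, Klrb1c, the weaker Ebf1 site (chromosome 11, 44665222 to 44665590) and the weaker Cxcr4 site (chromosome 1, 128667221 to 128667609). This Cxcr4 site had a fitted difference of 3.37 ± 4.62 points (SE). The stronger Cxcr4 site leaned the other way, with overlap, at -15.0 ± 6.35 points, and neither was called. The Foxo1 site had shared-set percentiles of 30.2, 27.7 and 30.5 untreated and 37.1, 63.2 and 46.7 DTx, and the Irf4 site 59.6, 58.8 and 42.9 and 58.8, 57.0 and 54.4, with overlap.

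The regions of lowest p without overlap were Pqlc3, Rasal1 and Ifnar1 upwards and Zc3h7a, Camk1d and Cgnl1 downwards. The region inside Pqlc3 (chromosome 12, 16997080 to 16997412) had shared-set percentiles of 22.4, 24.98 and 10.2 untreated and 31.9, 52.1 and 64.1 DTx, a fitted difference of 30.1 ± 7.16 points (SE; limma adjusted p = 0.966). That inside Rasal1, a Ras GTPase-activating gene (chromosome 5, 120677620 to 120677948), had 2.29, 10.9 and 2.86 and 23.5, 26.2 and 35.7. That near Ifnar1, a subunit gene of the type I interferon receptor (chromosome 16, 91480548 to 91480922, 4.11 kb away), had 31.4, 42.1 and 27.1 and 46.6, 54.2 and 77.5. Downwards, the site inside Cgnl1, a gene of cell junctions (chromosome 9, 71773589 to 71773965), had 32.7, 38.7 and 31.6 and 4.44, 19.1 and 19.7, a fitted difference of -19.9 ± 6.60 points. The strong sites inside Zc3h7a and Camk1d differed by -5.03 ± 1.35 and -7.03 ± 2.05 points. All 6 had the limma adjusted p of 0.966 and none is a called difference.

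Peaks of a region had widths of 239, 262 and 313 bp at the median in untreated replicates 1 to 3 and 267, 290 and 314 bp in DTx replicates 1 to 3. The means were 271 ± 37.9 and 290 ± 23.5 bp (SD, n = 3 each). The rule capped the merged width, so these widths are a description with no test. DTx was 51.5 bp wider in the lists without a summit column and 46 bp narrower in the pair with one (-46 bp, DTx minus untreated), so the direction turned with the layout.

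Distance from genes was compared at the same width limit, against the 55 compact regions within 1 kb of a gene end. The compact distal regions ranked lower by −log10 q in 6 of 6 libraries, with a mean difference of -6.87 ± 2.81 points between medians (SD over 6 libraries, exact two-sided paired permutation p = 0.03125, the smallest possible). The test is over libraries, which all measure the same regions, and does not cover which regions were compared. Ranked by fold enrichment the direction turned, with the distal regions 3.02 points higher (exact permutation p = 0.03125, again the smallest possible). Under a limit of 300 bp, with 71 distal and 3 gene-end regions, they were 8.51 points higher by −log10 q (exact permutation p = 0.0625). The direction thus depended on the measure and on the width limit.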

How the data were processed

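ATAC-seq peaks of 6 libraries, 3 untreated and 3 DTx, were used as the authors deposited them, 1 list per library. The submitters' processing notes name Trim Galore 0.4.3, Bowtie2 2.3.2, MACS2 2.1.1 and the build mm10, with no further settings. Each deposited list gives for a peak its position and length in bp, its pileup signal, its fold enrichment ratio over local background, and −log10 of p and of q. The headers of these last columns are damaged in the deposited files, and the second was taken as −log10 q from the column order and the values. Read depth per library is unknown, so no counting interval is given. The peak lists hold peaks past the caller's threshold, whose lowest −log10 q was 1.00 to 1.02 in 4 lists and 1.30 and 1.33 in the 2 with a summit column. Each list also held 2 peaks on mitochondrial DNA, which were not used here.

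Peaks on chromosomes 1 to 19, X and Y were merged where they overlapped by at least 1 bp. Gene ends came from RefSeq, GRCm38.p6 (21887 protein-coding genes). Where a region held several peaks of a list the strongest was taken. DTx and untreated were compared by an exact permutation test on library medians and by limma 3.58.1 (R 4.3.3) on shared-set percentiles of 30954 regions, with list layout as a covariate and Benjamini-Hochberg adjustment, after a run on simulated data. Other steps used Python 3.11.15, pandas 2.3.3 and SciPy 1.17.1. Alternatives were other width and distance limits, measures, left-out libraries, layouts and a replicate block. Named regions were the 8 strongest and 3 weakest, those of lowest p without overlap (3 per direction), up to 2 genes per list, the 4 fullest windows, the 5 members closest to each other with their partners, the genes nearest to most members, and those beside the thresholds. Regions at promoter windows and small RNA genes were named after their values were seen. Motifs were searched in RefSeq promoter windows alone, and other sequence was not used here. The members and lists were chosen with earlier results of these data known. A few named genes are not reported here.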

Additional observations from a re-analysis of the deposited data

How the results depend on the processing

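The number of regions depended on the limits. It was 71 under 300 bp, 2230 under 500 bp, 343 with a −log10 q of at least 5, 1523 from the 4 lists without a summit column and 5062 from the 2 with one. Leaving out 1 library gave 803 to 1440, with 1440 without untreated replicate 1 and 1102 without untreated replicate 3. In 9 alternatives it stayed within 1.5 times of 683, from 466 to 931. The difference in median shared-set percentile between DTx and untreated was above 0 in all 14 alternatives, of which the replicate block and the relabelling within layout change the p alone, and ran from 1.31 to 8.86 points with 1 library left out. No alternative with 6 or fewer libraries could give an exact p under 0.1, so the threshold says nothing here. The peak width difference turned to -46 bp in the pair with a summit column, and ran from 2.83 to 39.8 bp with 1 library left out. Compact distal minus compact gene-end rank turned to 3.02 points by fold enrichment and to 8.51 points under 300 bp. With 1 library left out it ran from -7.78 to -6.12 points, where 5 libraries allow no exact p under 0.0625. The causes of these turns were not tested. limma called 0 compact distal regions in all 15 alternatives, with a median standard error of 6.69 points in the fit reported, so 0 calls does not show that regions were alike. Over all 30954 regions it called 5 with the replicate block and 1 after an inverse normal transform of the percentiles. The other alternatives called 0 of all regions tested.

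Same-numbered libraries correlated at 0.207, 0.0126 and -0.0639 in their deviations from the group mean. Libraries of different number ran from -0.343 to 0.337, so these values do not decide whether same-numbered libraries were paired. With the replicate block limma called 0 compact distal regions, where 5 of all 30954 regions were called. The median difference stayed at 4.99 points (exact permutation p = 0.75). Relabelling within list layout, chosen after seeing the data, gave an exact p of 0.167, the smallest it allows, and limma on the lists without a summit column, chosen likewise, called 0.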
